A study of Arabidopsis thaliana with 28 samples.

Results

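The genes described here are the nuclear photosynthesis and chlorophyll synthesis genes that could be picked out by symbol on an Affymetrix Arabidopsis expression array. They comprise 23 genes of 22589 measured features: 2 photosystem I subunits, 2 photosystem II subunits, 3 antenna proteins, 6 factors of photosystem II assembly and 10 enzymes of tetrapyrrole synthesis. A gene was taken if its symbol in the platform annotation began with a prefix used for such genes (LHC, PSA, PSB, LPA, PAM68, CHL, HEM, POR and a few others that matched nothing). Of 45 symbols matched, 20 were plastid-encoded and were set aside, and 2 were dropped because their symbol stands for another function, a lipocalin and a tubulin-folding factor. The annotation leaves 8730 of 22810 probe sets without a gene, and the 23 members are a part of the pathway and not a census of it. One of them, LPA66, is a pentatricopeptide repeat protein that edits the plastid psbF transcript and was kept by its name.

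Transcripts were measured in the whole aerial part of seedlings of the Arabidopsis thaliana accession Ws-2, in 7 groups of 4 samples. The cold groups were CBF2Δc overexpressors, which carry a truncated CBF2 (CBF2Δc cold), and wild-type plants (WT cold). Warm groups were plants overexpressing CBF1, CBF2 or CBF3 (CBF1OX, CBF2OX and CBF3OX), CBF2Δc overexpressors (CBF2Δc warm) and wild-type plants (WT warm). All plants grew on agar for 11 d at 22 °C under constant light of about 100 µmol per square metre per second, and cold plants then spent 24 h at 4 °C under about 35 µmol per square metre per second. Cold plants were therefore also in dimmer light and older than warm plants, and temperature, light and age cannot be told apart. Per construct there were 2 transgenic lines and 2 samples of each line, replicates 1 and 2 from the first line and 3 and 4 from the second. CBF1OX lines were G5 and G39, CBF2OX lines E2 and E24, CBF3OX lines A28 and A30, and CBF2Δc lines DN89 and DN96. The sources used here give neither the promoter that drives the transgenes nor how plants were pooled. The p-values therefore measure the spread between these samples. The main tests counted the 2 samples of a line separately, so their p-values do not treat the line as the unit, with 2 lines per construct.

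CBF proteins belong to the AP2/ERF transcription factors, are induced by cold and switch on cold-regulated genes through the CRT/DRE promoter element. Photosystem II is a plastid membrane complex built stepwise from plastid-encoded proteins, among them those of the reaction centre, and nuclear-encoded subunits. Assembly factors that are not part of the finished complex help to build it. Chlorophyll is made from glutamate through the tetrapyrrole pathway, which branches to haem and to chlorophyll at the insertion of iron or magnesium, and light-harvesting proteins bind it around the photosystems. In chilled leaves the light energy absorbed can exceed what carbon fixation uses.

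Values are log2 expression levels, so a difference of 1 is a 2-fold change. A gene is called, and said to have risen or fallen, when its change is at least 2-fold and its adjusted p in a limma fit to all 28 samples is below 0.05 (Benjamini-Hochberg, over 14578 features). Tested features had a log2 level above 4 in at least 4 samples. Of the 23 members, 21 passed that filter. The other 2, hemb2 (an aminolevulinate dehydratase gene) and hemf2 (a coproporphyrinogen oxidase gene), lay at the dim end in every sample, from 2.16 to 2.33 and from 2.40 to 2.95, and were not tested. Levels of different genes come from different probe sets, so a difference between genes is used only for how it shifts between groups, not for its size within a group.

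Across the series, array medians lay between 4.98 and 5.08 and the mean correlation among arrays of a group between 0.965 and 0.987. The annotation names no probe set for CBF1, CBF2 or CBF3, and the constructs could not be checked by name. COR15A, a cold-regulated CBF target, averaged 11.53 ± 0.59 in CBF2Δc cold, 12.16 ± 0.19 in WT cold, 12.57 ± 0.45 in CBF1OX, 12.71 ± 0.42 in CBF2OX, 12.56 ± 0.25 in CBF3OX, 4.31 ± 0.06 in CBF2Δc warm and 4.46 ± 0.36 in WT warm plants (SD, n = 4 each). Rubisco activase (RCA), a leaf mesophyll gene, averaged 13.12 ± 0.23 in CBF2Δc cold, 13.08 ± 0.14 in WT cold, 13.66 ± 0.07 in CBF2Δc warm and 13.56 ± 0.07 in WT warm plants. It differed in the cold by -0.54 ± 0.11 in CBF2Δc (adjusted p = 0.000155) and by -0.47 ± 0.11 in wild-type plants (adjusted p = 0.000629), under 2-fold in both. Of the root genes on the marker list 3 were measured: group means of EXPA7 and EXPA18 did not exceed 4.5, and PYK10, a gene of roots and hypocotyls, averaged 10.79 ± 0.36 in CBF2Δc cold, 11.04 ± 0.29 in WT cold, 11.82 ± 0.58 in CBF2Δc warm and 11.80 ± 0.29 in WT warm plants. PYK10 fell in cold CBF2Δc plants (log2 difference -1.03 ± 0.26 SE, limma adjusted p = 0.00205) and differed by -0.77 ± 0.26 in cold wild-type plants (adjusted p = 0.0176). EXPA7 differed by -0.56 and -0.66 and EXPA18 by -0.40 and -0.43 in CBF2Δc and wild-type plants. The part of these genes in the results was not tested. In whole shoots, fewer cells of a type and less RNA per cell cannot be told apart.

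Wild-type plants in the cold had lower levels of several photosystem II assembly genes and of some tetrapyrrole synthesis genes. Of the 21 members tested, 7 fell and 0 rose, where 9.67% of all features tested fell and 8.74% rose. The genes that fell were 4 assembly factors (LPA2, PSB27, PAM68 and LPA19), the antenna gene LHCB4.2, the methyltransferase gene CHLM and the decarboxylase gene HEME1, each 2.08- to 3.68-fold lower. The median over the members was -0.57 on the log2 scale against -0.04 over all features tested, and 19 of 21 lay below 0. By adjusted p alone, without the 2-fold requirement, 14 members were lower, against 28.5% of all features. By class, 4 of 6 assembly factors, 1 of 3 antenna genes, 2 of 8 tetrapyrrole genes and 0 of 4 photosystem subunits fell.

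**Figure D1:**
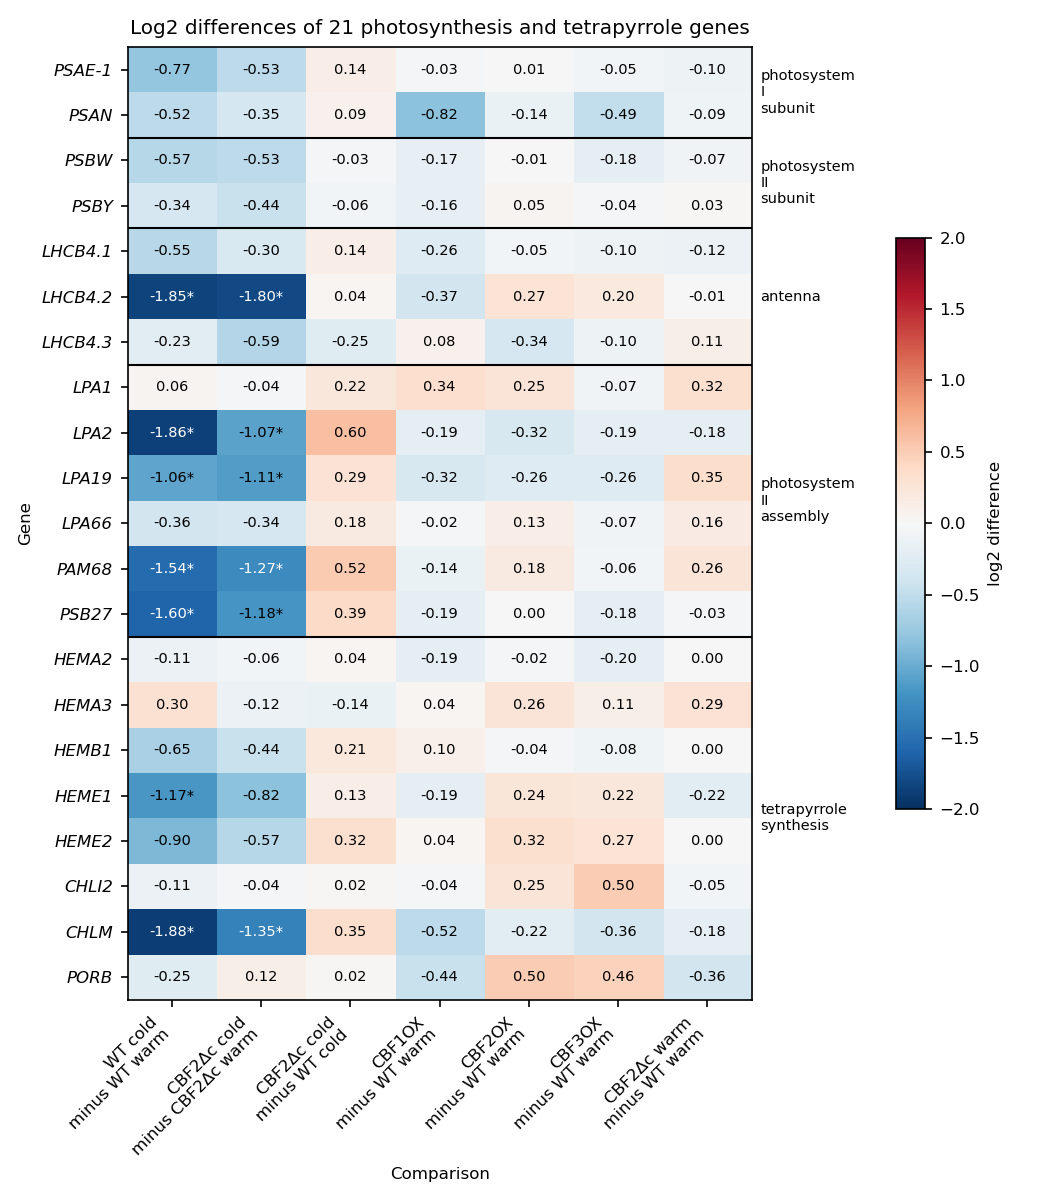
Log2 differences (colour and printed value) of the 21 tested members in rows, grouped by role, in 7 comparisons in columns; an asterisk marks a called gene. The 13 asterisks all lie in the cold-against-warm columns, 7 in wild-type and 6 in CBF2Δc plants, and the 4 columns that compare warm overexpressors or warm CBF2Δc plants with WT warm hold none. In those 4 columns 0.0206% to 3.6% of all features were called.

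The assembly factors held the largest share of genes that fell. LPA2 (AT5G51545), needed for the assembly of the inner antenna protein CP43, read 7.30, 6.73, 7.07 and 6.68 in WT cold samples, against 9.19, 8.64, 8.61 and 8.76 in WT warm samples. In CBF2Δc plants its levels were 7.39, 7.89, 7.52 and 7.4 in the cold and 8.55, 8.70, 8.33 and 8.91 in the warm. In both genotypes every cold sample lay below every warm one, and every CBF2Δc cold sample lay above every WT cold sample. LPA2 fell by 1.86 ± 0.19 (SE) on the log2 scale in wild-type plants, 3.62-fold (adjusted p = 1.23e-08), and by 1.07 ± 0.19 in CBF2Δc plants, 2.10-fold (adjusted p = 4.37e-05). The CBF2Δc call rested on little more than the fold threshold: the difference was -0.98 with line DN89 alone and also -0.98 without CBF2Δc warm replicate 4.

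PSB27 (AT1G03600), a lumenal protein that binds photosystem II during its assembly and repair, was the most tightly measured of them. Its levels were 10.10, 10, 10.06 and 10.06 in WT cold samples, against 11.68, 11.73, 11.63 and 11.60 in WT warm samples. Cold CBF2Δc plants had 10.44, 10.29, 10.64 and 10.42, against 11.64, 11.54, 11.77 and 11.57 in warm CBF2Δc plants. Cold and warm samples did not overlap, with more than a whole log2 unit between them in wild type, and all CBF2Δc cold samples were above all WT cold samples. PSB27 fell by 1.60 ± 0.11 on the log2 scale in wild type, or 3.04-fold (adjusted p = 7.74e-12), and fell by 1.18 ± 0.11 in CBF2Δc plants, or 2.27-fold (adjusted p = 1.68e-09).

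LPA19 (AT1G05385), a PSB27 homologue that acts in the processing of the D1 reaction centre protein, lay lower throughout the cold groups. WT cold samples had 6.20, 5.78, 5.67 and 5.35, against 6.93, 6.70, 6.69 and 6.91 in WT warm samples. CBF2Δc samples had 5.88, 6.02, 6.01 and 6.27 in the cold, against 6.98, 7.15, 7.46 and 7.04 in the warm. No cold sample reached a warm one of the same genotype. The differences were -1.06 ± 0.17 in wild type (adjusted p = 1.19e-05) and -1.11 ± 0.17 in CBF2Δc plants (adjusted p = 6.03e-06), and the wild-type call was lost without WT cold replicate 4, at -0.92.

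PAM68 (AT4G19100), a membrane protein of early photosystem II assembly, varied more between cold samples. It read 6.43, 5.22, 5.82 and 5.68 in WT cold samples, against 7.27, 7.26, 7.29 and 7.47 in WT warm samples. In CBF2Δc plants it read 5.94, 6.17, 6.98 and 6.14 in the cold, against 7.44, 7.34, 7.81 and 7.72 in the warm. Warm wild-type samples were close together and cold ones were spread over more than a log2 unit, yet no cold sample overlapped the warm ones of its genotype. PAM68 fell by 1.54 ± 0.20 in wild-type (adjusted p = 3.7e-07) and by 1.27 ± 0.20 in CBF2Δc plants (adjusted p = 6.15e-06).

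The remaining assembly members were not called in either genotype. LPA1 (AT1G02910), which assists the D1 protein, differed by 0.06 ± 0.20 in wild-type and -0.04 ± 0.20 in CBF2Δc plants, with 95% intervals from -0.34 to 0.47 and from -0.44 to 0.36. The editing factor LPA66 (AT5G48910) differed by -0.36 ± 0.14 (adjusted p = 0.0361) and -0.34 ± 0.14 (adjusted p = 0.0489), both under 2-fold. For LPA1 neither interval reaches a 2-fold change.

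Among antenna genes, 1 of 3 members of the CP29 family fell. LHCB4.1, LHCB4.2 and LHCB4.3 encode isoforms of CP29, a chlorophyll-binding protein that links the main light-harvesting complexes to photosystem II. LHCB4.2 (AT3G08940) had 9.5, 9.32, 8.80 and 8.58 in WT cold samples, against 10.93, 10.89, 11.28 and 10.49 in WT warm samples. In CBF2Δc plants it had 8.71, 9.17, 9.09 and 9.39 in the cold, against 10.61, 10.47, 11.48 and 10.99 in the warm. Its cold samples lay well below the warm ones in both genotypes, and the CBF2Δc cold samples lay within the range of the WT cold samples. The fall was 3.60-fold in wild type (log2 difference -1.85 ± 0.32, adjusted p = 2.47e-05) and 3.48-fold in CBF2Δc plants (-1.80 ± 0.32, adjusted p = 3.55e-05).

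LHCB4.1 (AT5G01530) had 12.05, 11.99, 11.96 and 11.64 in WT cold samples, against 12.47, 12.60, 12.50 and 12.28 in WT warm samples. These groups did not overlap either, but the difference was -0.55 ± 0.13, and in CBF2Δc plants it was -0.30 ± 0.13 (adjusted p = 0.00118 and 0.0683). For LHCB4.3 (AT2G40100) the differences were -0.23 ± 0.20 and -0.59 ± 0.20 (adjusted p = 0.352 and 0.0179). Neither gene reached 2-fold in either genotype. Taken sample by sample, the log2 level of LHCB4.2 minus that of LHCB4.1 was 1.3 lower in WT cold than in WT warm samples (-2.86 ± 0.30 and -1.56 ± 0.25, SD, n = 4 each) and 1.5 lower in CBF2Δc cold than in CBF2Δc warm samples. Each of these shifts had an exact two-sided permutation p of 0.0286, the smallest that 70 splits of 8 samples allow, and an adjusted p of 0.0714 over 10 such tests on gene pairs, which does not pass 0.05. LHCB4.2 minus LHCB4.3 shifted by -1.61 and -1.21 with the same p-values, while LHCB4.3 minus LHCB4.1 shifted by 0.32 in wild-type (exact p = 0.171) and by -0.29 in CBF2Δc plants (exact p = 0.0857). These pairs were chosen after the values had been seen in the same samples, so the p-values are no separate test of the LHCB4.2 fall. In CBF2Δc plants the splits also counted the 2 samples of a line separately.

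The photosystem subunits were lower in the cold by less than 2-fold. PSAE-1 (AT4G28750), a stromal subunit of photosystem I at the ferredoxin docking site, differed by -0.77 ± 0.17 in wild-type (adjusted p = 0.000428) and by -0.53 ± 0.17 in CBF2Δc plants (adjusted p = 0.0114). WT cold samples had 11.60, 11.68, 11.51 and 10.69, against 12.26, 12.13, 12.17 and 12.01 in WT warm samples, so 1 cold sample stood well below the others. PSBW (AT2G30570), a small subunit that stabilises photosystem II supercomplexes, differed by -0.57 ± 0.13 and -0.53 ± 0.13 (adjusted p = 0.000633 and 0.00125). PSBY (AT1G67740), a small photosystem II protein, differed by -0.34 ± 0.14 and -0.44 ± 0.14 (adjusted p = 0.0416 and 0.0106). The lumenal photosystem I subunit PSAN (AT5G64040) differed by -0.52 ± 0.29 and -0.35 ± 0.29 and passed in neither genotype (adjusted p = 0.13 and 0.323). The fit pools the spread of all 7 groups. PSAN had an SD of 1.08 in CBF1OX plants, against 0.1 to 0.25 in the groups compared here. In both genotypes every cold sample of all 4 subunit genes was below every warm sample, against 26.4% of all features in wild-type and 23.5% in CBF2Δc plants.

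In tetrapyrrole synthesis, CHLM and HEME1 fell in wild-type plants, and HEME2 and HEMB1 were lower by less than 2-fold. CHLM (AT4G25080) encodes the methyltransferase that acts on magnesium protoporphyrin IX, on the chlorophyll branch. It read 9.64, 9.17, 8.97 and 8.96 in WT cold samples, against 11.13, 10.90, 11.01 and 11.22 in WT warm samples. CBF2Δc samples read 8.99, 9.71, 9.72 and 9.71 in the cold, against 10.94, 10.94, 10.77 and 10.89 in the warm. Warm and cold samples were separated by more than a log2 unit in both genotypes, and 1 CBF2Δc cold sample stood apart from 3 nearly equal ones. CHLM fell 3.68-fold in wild type (log2 difference -1.88 ± 0.18, adjusted p = 4.74e-09) and 2.55-fold in CBF2Δc plants (-1.35 ± 0.18, adjusted p = 9.83e-07).

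HEME1 and HEME2 encode uroporphyrinogen decarboxylases, which act before the branch to haem and chlorophyll. HEME1 (AT3G14930) had 6.24, 6.84, 5.78 and 6.34 in WT cold samples, against 7.33, 7.52, 7.37 and 7.66 in WT warm samples. In CBF2Δc plants it had 6.30, 6.73, 6.56 and 6.12 in the cold, against 7.10, 6.93, 7.68 and 7.30 in the warm. Cold samples were below all warm ones in both genotypes, by a narrow gap in CBF2Δc plants. HEME1 fell by 1.17 ± 0.22 in wild-type plants (adjusted p = 9.24e-05), a call lost without WT cold replicate 3, at -1.0. The difference was -0.82 ± 0.22 in CBF2Δc plants, under 2-fold (adjusted p = 0.00314). HEME2 (AT2G40490) differed by -0.90 ± 0.13 in wild-type (adjusted p = 3.13e-06) and by -0.57 ± 0.13 in CBF2Δc plants (adjusted p = 0.000805), under 2-fold in both, and passed 2-fold in wild type without WT cold replicate 2 (-1.02). The HEME1 minus HEME2 level shifted by -0.27 in wild-type and -0.25 in CBF2Δc plants in the cold (exact permutation p = 0.2 and 0.286).

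The other tetrapyrrole genes were not called. HEMB1 (AT1G69740), an aminolevulinate dehydratase gene, differed by -0.65 ± 0.13 in wild-type and -0.44 ± 0.13 in CBF2Δc plants (adjusted p = 0.000134 and 0.00527). CHLI2 (AT5G45930), a subunit of magnesium chelatase, differed by -0.11 ± 0.15 and -0.04 ± 0.15, with no interval reaching 2-fold. PORB (AT4G27440), the light-dependent protochlorophyllide oxidoreductase that stays active in green tissue, differed by -0.25 ± 0.31 and 0.12 ± 0.31. The glutamyl-tRNA reductase genes HEMA2 (AT1G09940) and HEMA3 (AT2G31250) were dim in every group, between 3.69 and 4.90, and differed by -0.11 and 0.30 in wild-type plants, neither past the threshold. HEMA1, the main gene of that first committed step in green tissue, is not among the named genes.

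**Figure D2:**
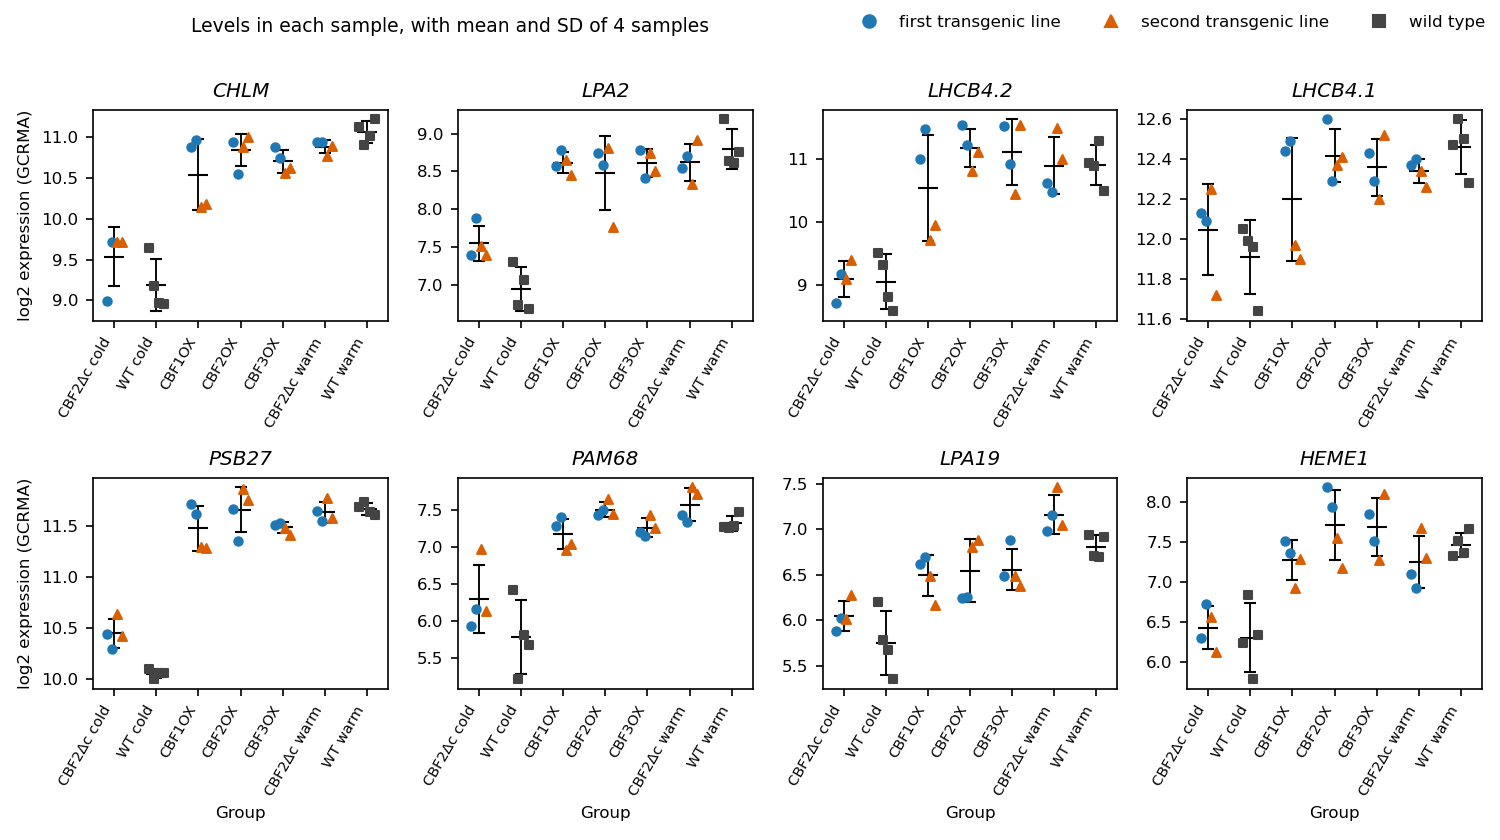
Log2 expression (GCRMA) in each sample for the 7 genes that fell in wild-type plants and for LHCB4.1, by group; blue circles are the first and orange triangles the second transgenic line, grey squares wild type, and bars the mean and SD of 4 samples. In the panels of the 7 called genes the CBF2Δc cold and WT cold samples lie below the WT warm samples, and the orange triangles of CBF1OX lie below its blue circles in every panel except that of LPA2.

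CBF2Δc plants were given the same cold treatment as wild-type plants, which lets the cold response be compared with and without the truncated CBF2. In CBF2Δc plants 6 members fell in the cold and 0 rose, against 8.99% and 9.08% of all features, and these 6 were all among the 7 that fell in wild-type plants. By adjusted p alone 14 members were lower, against 28.2% of features, and the median over members was -0.53 against -0.04 over all features. Cold differences in CBF2Δc and wild-type plants had a Pearson r of 0.919 and a Spearman rho of 0.881 over the 21 members, and 0.936 and 0.905 over all features tested. The genotypes share no samples in these differences, but all members of a genotype share the same arrays. The cold difference was smaller in size in CBF2Δc than in wild-type plants for 18 of 21 members, against 7289 of 14578 features.

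**Figure D3:**
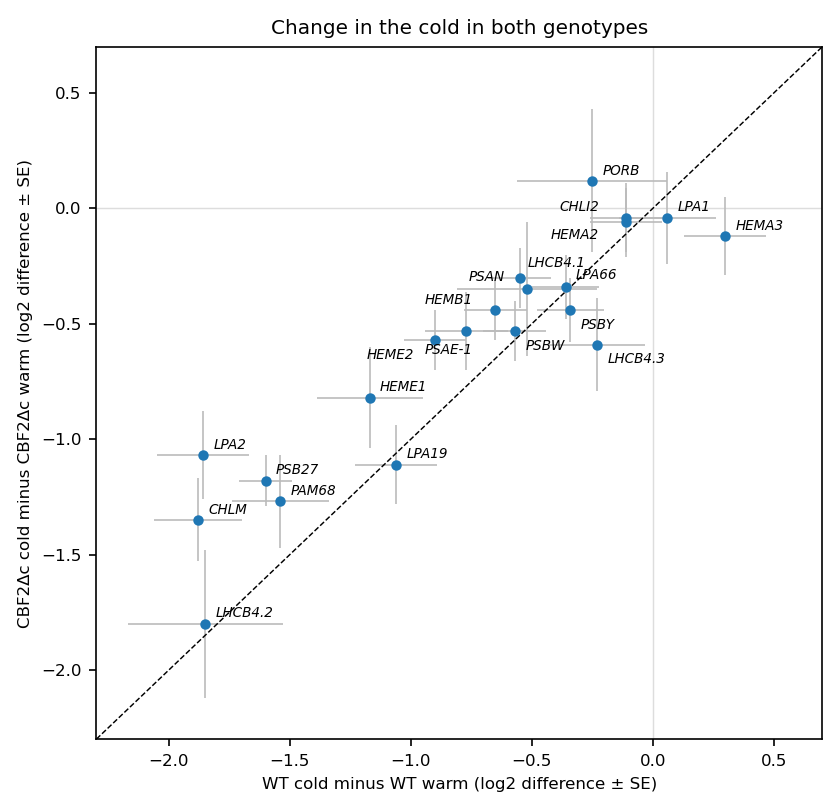
Cold minus warm log2 differences of the 21 members in CBF2Δc plants (vertical) against wild-type plants (horizontal), with standard errors of the fit; the dashed line marks equal differences. LPA2 (-1.07 and -1.86), CHLM (-1.35 and -1.88) and PSB27 (-1.18 and -1.60) lie above the line, and LHCB4.2 (-1.80 and -1.85) and LPA19 (-1.11 and -1.06) lie on it.

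Tested directly, the difference between the genotypes did not pass for any member. The cold response of CBF2Δc plants minus that of wild-type plants gave 0 calls among members by limma, against 4 of all features (0.0274%), and 2 members at an unadjusted p below 0.05. Those were LPA2 (0.78 ± 0.27, adjusted p = 0.349) and PSB27 (0.42 ± 0.15, adjusted p = 0.394). Comparing the cold groups alone, CBF2Δc cold minus WT cold gave 0 calls among members, where 0.837% of features were called, and 4 members at an unadjusted p below 0.05. By adjusted p alone 1 member was higher in CBF2Δc cold plants, against 4.03% of features: PSB27, by 0.39 ± 0.11 (adjusted p = 0.0335). LPA2 by 0.60 ± 0.19 and PAM68 by 0.52 ± 0.20 did not pass (adjusted p = 0.0649 and 0.123). For 2 members, LPA2 and PSB27, every CBF2Δc cold sample was above every WT cold sample, as for 5.88% of features. All 6 assembly factors and 17 of 21 members had a difference above 0, with a median of 0.14 against 0.04 over all features. The 95% interval lay within 2-fold for 20 of 21 members; that of LPA2 ran from 0.21 to 1.0.

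In warm plants no member differed detectably between CBF2Δc and wild type. CBF2Δc warm minus WT warm gave 0 calls, with 0.0206% of features called, and 0 members at an unadjusted p below 0.05. Differences ran from -0.36 (PORB) to 0.35 (LPA19), and every one of the 21 intervals lay within 2-fold.

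None of the members was called in the CBF overexpressors. The members called against WT warm numbered 0 in CBF1OX, 0 in CBF2OX and 0 in CBF3OX plants, where 2.53%, 2.5% and 3.6% of all features were called. Shares this small leave few calls to look for among 21 members. At an unadjusted p below 0.05 there were 2, 1 and 1 members. Medians over the members were -0.17, 0.01 and -0.07, and the 95% interval lay within 2-fold for 18, 20 and 19 of 21 members. Among the genes that fell in the cold, PSB27 differed from WT warm by -0.19, 0.00 and -0.18 in CBF1OX, CBF2OX and CBF3OX plants, PAM68 by -0.14, 0.18 and -0.06, LPA2 by -0.19, -0.32 and -0.19, LPA19 by -0.32, -0.26 and -0.26, and HEME1 by -0.19, 0.24 and 0.22. LHCB4.2 differed by -0.37, 0.27 and 0.20, and CHLM by -0.52, -0.22 and -0.36. Of these only CHLM in CBF1OX had an unadjusted p below 0.05 (adjusted p = 0.1).

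CHLI2 was the only member past the adjusted p in any of these 3 comparisons, without reaching 2-fold, where 3.92% of features were higher in CBF3OX by adjusted p alone. It had 8.48, 8.45, 8.39 and 8.54 in CBF3OX samples, against 8.14, 8.11, 7.89 and 7.73 in WT warm samples. All CBF3OX samples were above all WT warm samples, as for 9.6% of features (0.50 ± 0.15, adjusted p = 0.0336), whereas CBF2OX samples, at 8.55, 8.30, 8.0 and 8.03, overlapped them (0.25 ± 0.15). PORB was uneven: it had 11.26, 10.64, 10.08 and 9.65 in CBF2OX and 10.81, 9.72, 9.68 and 11.26 in CBF3OX samples, against 9.74, 10.24, 9.99 and 9.65 in WT warm samples. The highest sample of each overexpressor stood more than a log2 unit above the highest wild-type sample while others were level with wild type, and the differences, 0.50 ± 0.31 and 0.46 ± 0.31, did not pass (adjusted p = 0.423 and 0.404).

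To set the cold change against the overexpressor change directly, WT cold was compared with each overexpressor, a comparison added after the data had been seen. All 3 share the same WT cold samples, which also gave the calls against WT warm. With members of the overexpressors near the WT warm level, these calls are not a separate test of the cold fall. WT cold minus CBF1OX gave 5 members lower (8.54% of features): LPA2 (-1.67 ± 0.19), LHCB4.2 (-1.48 ± 0.32), PSB27 (-1.42 ± 0.11), PAM68 (-1.39 ± 0.20) and CHLM (-1.36 ± 0.18). WT cold minus CBF2OX gave 7 (8.73% of features), with those 5 at -1.53 to -2.11 together with HEME1 (-1.42 ± 0.22) and HEME2 (-1.22 ± 0.13). WT cold minus CBF3OX gave 7 (7.92% of features), with the 5 at -1.43 to -2.05 together with HEME1 (-1.39 ± 0.22) and HEME2 (-1.17 ± 0.13). HEME2 had 7.80, 8.32, 7.89 and 7.85 in WT cold samples, against 9.57, 9.24, 8.96 and 8.98 in CBF2OX and 9.11, 8.92, 9.11 and 9.39 in CBF3OX samples, with no overlap. No member was called higher in WT cold in these comparisons with both lines of a construct together; PSAN was called higher in WT cold than in CBF1OX with line G39 alone (1.22, adjusted p = 1.5e-05). By adjusted p alone 12, 16 and 13 members were lower in WT cold than in CBF1OX, CBF2OX and CBF3OX plants, against 27.5%, 27.4% and 26.7% of features. The limma adjusted p was at most 0.000392 for the 5 shared genes, that of LHCB4.2 against CBF1OX. Between overexpressors, 0 members were called, and 4 members in CBF1OX minus CBF2OX, 3 in CBF1OX minus CBF3OX and 0 in CBF2OX minus CBF3OX had an unadjusted p below 0.05. The shares of all features called were 0.0343%, 0.0206% and 0.0206% in that order.

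The CBF1OX lines differed from each other. PSAN had 10.51 and 10.87 in line G39 and 12.40 and 12.67 in line G5, against 12.38, 12.59, 12.30 and 12.45 in WT warm samples. LHCB4.2 had 9.71 and 9.95 in line G39 and 10.99 and 11.47 in line G5, against 10.93, 10.89, 11.28 and 10.49 in WT warm samples. CHLM had 10.15 and 10.18 in line G39 and 10.88 and 10.96 in line G5. For these genes, given as examples, both G39 samples lay below every WT warm sample, while G5 samples of PSAN and LHCB4.2 were within or above the wild-type range. How many of all features show that separation from WT warm was not counted. Both G39 samples were below both G5 samples for 13 of 21 members, where 25.7% of all features showed this, and above them for 1 member, where 26.1% did. The median difference of line means, G39 minus G5, was -0.34 over the members and 0.00 over all features, and 2 members were at least 2-fold lower, PSAN (-1.85) and LHCB4.2 (-1.40), against 3.59% of features.

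With line G39 alone as CBF1OX, PSAN (-1.74, adjusted p = 6.72e-07) and LHCB4.2 (-1.07, adjusted p = 0.0176) were called lower than WT warm, where 8.02% of features were called. Those 2 calls among 21 members are near that share. With line G5 alone 0 members were called, and 0.48% of features. Leaving out replicate 1 or replicate 2, both of line G5, also brought PSAN past the threshold in CBF1OX (-1.08 and -1.17). Line G39 alone gained that call of PSAN in WT cold against CBF1OX and ended 2 calls of lower genes, with CHLM at -0.98 and LHCB4.2 at -0.78. CBF target genes were also higher in G39: COR15A averaged 12.92 in G39 and 12.23 in G5, LTI30 13.47 and 11.23, and COR47 13.40 and 12.04. Marker genes were lower in G39: PYK10 averaged 11.38 in G39 and 12.30 in G5, EXPA18 3.75 and 4.49, EXPA7 3.83 and 4.15, and RCA 13.42 and 13.64. The part of either in the line difference of the photosynthesis genes was not tested, with 2 lines and 2 samples each. In CBF2OX, line E2 alone gave 1 call, PORB, at 1.04 above WT warm (adjusted p = 0.0252; 5.16% of features called), and PORB in line E24 differed by -0.04. That count is also near the share of all features.

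**Figure D4:**
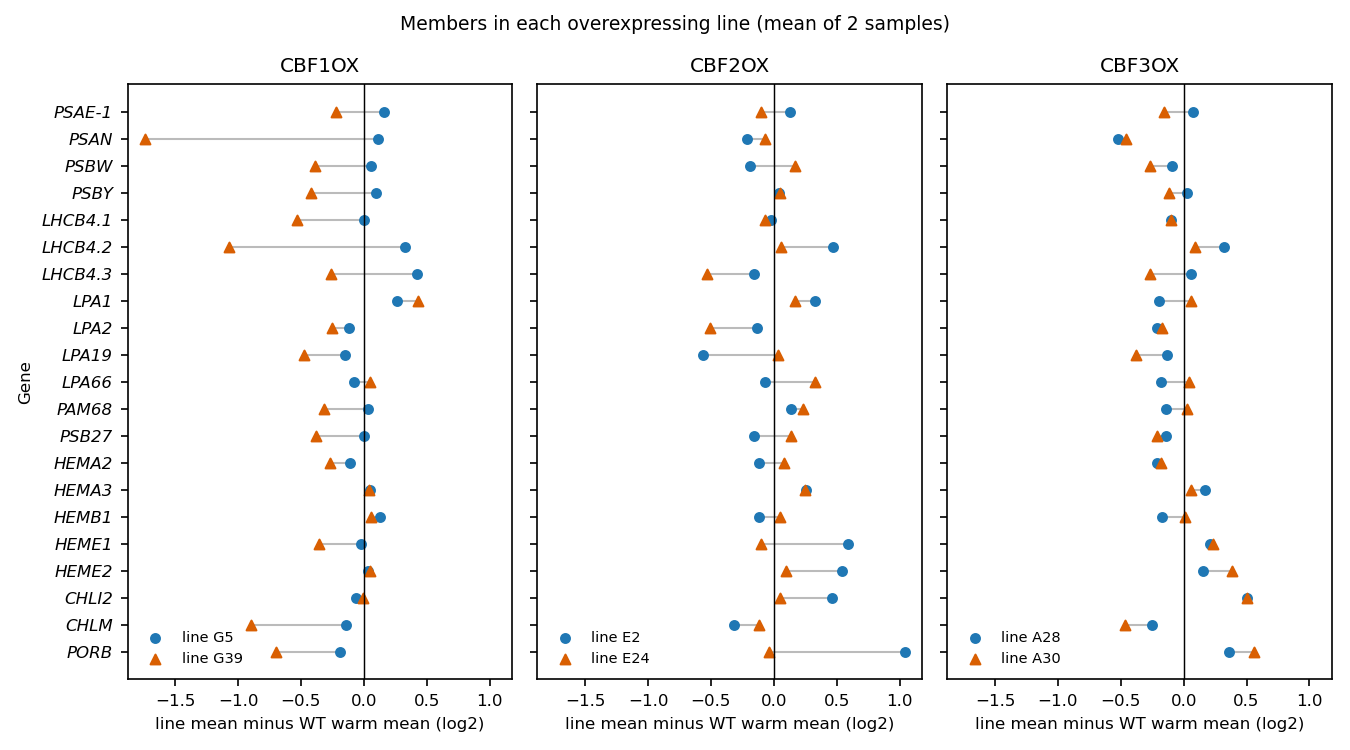
Mean of the 2 samples of each overexpressing line minus the WT warm mean (log2), for the 21 members, in CBF1OX, CBF2OX and CBF3OX plants; grey bars join the lines of a construct. In CBF1OX, line G39 lies left of line G5 for most members, by 1.85 for PSAN and 1.40 for LHCB4.2, and in CBF2OX line E2 stands at 1.04 for PORB.

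Averaged over the 21 members, each sample's level relative to the WT warm mean was -0.77, -0.53, -0.49 and -0.64 in CBF2Δc cold and -0.62, -0.70, -0.78 and -0.94 in WT cold samples. In CBF1OX samples it was -0.01, 0.09, -0.40 and -0.33, the last 2 from line G39. All other warm samples lay between -0.13 and 0.16. The cold samples were the lowest of the series and those of line G39 were next.

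Other photosynthesis genes were read from lists that the annotation covers sparsely. Of 42 plastid-encoded photosynthesis genes tested, 10 fell and 0 rose in wild-type plants in the cold, where 9.67% of all features fell, with a median of -0.71. In CBF2Δc plants 3 fell, near the 8.99% of all features that fell, with a median of -0.47. No test of the genotypes against each other was run over this list as a whole. Genes that fell included psbB and psbC, which encode the inner antenna proteins CP47 and CP43 (-1.44 ± 0.26 and -1.07 ± 0.13 in wild-type plants), and psbD, which encodes the D2 protein (-1.27 ± 0.29 in wild-type and -1.16 ± 0.29 in CBF2Δc plants). None was called in CBF1OX, CBF2OX or CBF3OX plants, where 2.53%, 2.5% and 3.6% of all features were called. With shares that small, few calls among 42 genes could be looked for. Medians over the plastid genes were below 0 in all 3, at -0.33, -0.23 and -0.32. Plastid transcripts largely lack poly(A) tails, and how well they were amplified was not tested. Of 4 nuclear genes of electron transport and the ATP synthase, PGRL1B, a component of cyclic electron flow, fell in wild-type (-1.32 ± 0.16, adjusted p = 1.61e-07) and CBF2Δc plants (-1.25 ± 0.16, adjusted p = 4.01e-07). Of 3 carbon fixation genes, PRK, the Calvin cycle phosphoribulokinase, fell in wild-type plants (-1.22 ± 0.17, adjusted p = 8.37e-07). In CBF2Δc plants it was lower by less than 2-fold (-0.76 ± 0.17, adjusted p = 0.000413). PRK differed from WT warm by -0.15, -0.32 and -0.57 in CBF1OX, CBF2OX and CBF3OX plants, the last with an adjusted p of 0.0288. RCA and SBPASE were not called, and SBPASE differed in the cold by -0.46 ± 0.13 in wild-type and -0.40 ± 0.13 in CBF2Δc plants (adjusted p = 0.00493 and 0.0118). The transcription factor gene HYH, a homologue of the light regulator HY5, rose in the cold, by 1.55 ± 0.21 in wild-type and 1.95 ± 0.21 in CBF2Δc plants (adjusted p = 6.96e-07 and 1.76e-08). NOL, a chlorophyll b reductase gene, and the carotenoid genes LYC and Z-ISO were not called in either genotype. Z-ISO was lower by less than 2-fold in wild-type (-0.82 ± 0.15, adjusted p = 5.37e-05) and CBF2Δc plants (-0.40 ± 0.15, adjusted p = 0.0279). NOL was lower by less than 2-fold in wild-type plants (-0.60 ± 0.15, adjusted p = 0.00203) and differed by -0.06 ± 0.15 in CBF2Δc plants. LYC differed by -0.25 ± 0.21 and -0.20 ± 0.21, and passed in neither.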

How the data were processed

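Expression was measured on 28 Affymetrix arrays. Each deposited value is a probe set's expression on a log2 scale after GCRMA, which the authors ran, per the submitters' processing notes; limma is named there too, with no version. That the base is 2 was judged from the size of the values. Since GCRMA removes background by probe sequence, dim probe sets crowd near the lowest value, 2.16, and 17.4% of values lay within 0.1 of it. Precision depends on how many arrays a group has and on each gene's spread within groups over all 28 arrays. The members and lists, and the tests on them, were chosen with earlier results of these data known.

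Members were found by symbol prefix in the platform annotation, in probe sets with 1 gene; loci were checked against the RefSeq gene table of assembly TAIR10.1, for names only. The highest-mean probe set stood for a gene, which left 22589 features without 64 control probe sets. Every member that passed the filter was a named gene, and per-sample values were given for members called in any comparison. A limma 3.58.1 model (lmFit, eBayes; R 4.3.3) with 1 mean per group was fitted to 14578 features in all 28 samples, with Benjamini-Hochberg adjustment over all of them in each of 14 comparisons. On simulated data for WT cold minus WT warm over 14578 features, this recovered 96% of 100 changes of 1.5 log2 units and 100% of 100 changes of 2 log2 units. The simulated noise was independent between samples, with no correlation within lines. Changes nearer the 2-fold threshold were not simulated, so their recovery is not known. Gene pairs were compared by exact permutation tests (Python 3.11.15, scipy 1.17.1). The planned search for promoter motifs was not run, as no promoter sequence was used here. Alternatives were the samples fitted, replicate and line blocks, line means, median-centred arrays, no filter, mean of probe sets, no fold threshold, single lines and leaving out each replicate. With the line as a block, the correlation among samples of a line was estimated at 0.226. Replicate numbers were checked as pairs by the correlation of deviations from group means. Those of CBF2Δc cold and warm samples correlated at 0.152 to 0.283, and same-numbered samples there also come from the same line. In no other comparison checked was every correlation above 0. Those of CBF2OX and CBF3OX ran from -0.043 to 0.38, and those of CBF1OX and CBF2OX from -0.241 to -0.192.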

Additional observations from a re-analysis of the deposited data

Results flagged for a closer look

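In 9 of 147 sets of 4 samples (21 genes in 7 groups) 1 sample stood apart from the other 3 by Dixon's criterion at the 95% level, where chance alone marks about 1 set in 20. CHLM was 8.99 in CBF2Δc cold replicate 1, against 9.71 to 9.72 in the other samples of that group, and HEMB1 was 8.68 in CBF2Δc cold replicate 4, against 9.16 to 9.19. LPA66 stood apart in 3 groups: at 5.05 in CBF2Δc cold replicate 2 (others 5.50 to 5.57), at 5.75 in CBF1OX replicate 4 (others 5.50 to 5.54) and at 6.09 in CBF2Δc warm replicate 3 (others 5.64 to 5.67). LHCB4.3 was 8.73 in CBF3OX replicate 2 (others 8.01 to 8.12) and 8.57 in WT warm replicate 1 (others 8.23 to 8.27). PAM68 was 7.47 in WT warm replicate 4 (others 7.26 to 7.29), and HEMA2 was 4.43 in CBF2OX replicate 3 (others 4.03 to 4.04).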

How the results depend on the processing

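Of 258 recounts of called members, 244 stayed within 1.5 times the count reported and 14 did not. Without the 2-fold requirement the counts were 14 for WT cold minus WT warm, 14 for CBF2Δc cold minus CBF2Δc warm, 1 for CBF2Δc cold minus WT cold (PSB27, higher), 1 for CBF3OX minus WT warm (CHLI2, higher), and 12, 16 and 13 for WT cold minus CBF1OX, CBF2OX and CBF3OX. The first line of each construct alone gave 1 call in CBF2OX minus WT warm (PORB) and 1 in CBF1OX minus CBF2OX (PORB, -1.23); the second line alone gave 2 in CBF1OX minus WT warm (PSAN and LHCB4.2), 1 in CBF1OX minus CBF2OX (PSAN, -1.68) and 1 in CBF1OX minus CBF3OX (PSAN, -1.28). Leaving out each replicate in turn gave 6 to 8 calls for WT cold minus WT warm, 5 to 6 for CBF2Δc cold minus CBF2Δc warm, 5 to 7, 7 to 8 and 7 to 7 for WT cold minus CBF1OX, CBF2OX and CBF3OX, and 0 to 1 for CBF1OX minus WT warm, where PSAN passed without CBF1OX replicate 1 (-1.08) or replicate 2 (-1.17); the other comparisons kept 0. With the replicate number as a block (replicate block) the counts were 7 for WT cold minus WT warm and 6 for CBF2Δc cold minus CBF2Δc warm, and the block changed no other count. No direction reversed among the genes called. Over all features, the calls of CBF1OX minus WT warm moved with the samples used: 369 in the fit to all samples, 35 with only the compared groups fitted, 70 with line G5 alone and 1169 with line G39 alone. The cause of these changes was not tested. Dim probe sets near the background level, such as those of HEMA2 and HEMA3, limit what can be seen of their changes.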
